A study of Sorghum bicolor with 12 samples.

Results

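In the stem internode of the sweet sorghum (Sorghum bicolor) hybrid CSH22SS, 66 loci with a gene ID were both very abundant and far above booting in all 3 groups tied to water limitation. They were chosen by their measured values. The rule took loci whose ratio to booting, on FPKM + 1, was at least 4 in each of Ds1, Ds2 and Ds3, and whose highest Ds value was at least 500 FPKM. FPKM counts sequenced fragments in proportion to transcript length and library size. Of 34718 loci in the water-limiting part of the deposited table, 33391 carried a gene ID and 66 of these passed; 9 more that met the numbers, 1 single gene and a run of neighbours on chromosome 3, were left out by the rule. The 66 loci name 65 IDs, because Sobic.004G087050 was assembled as a pair of loci.

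All plants were of the 1 hybrid and grew in an open field, and RNA came from the middle internode. The groups were booting (the panicle still in the flag-leaf sheath), the milky stage, physiological maturity, and 3 more groups sampled at booting and coded Ds1, Ds2 and Ds3. Water limitation is named in the title of the series and above the Ds columns of the table; the labels do not say how water was limited, for how long, or whether the codes mark times or severities. Each of the 6 groups had 2 libraries, which the authors combined into 1 value, so no value has a replicate error, every comparison is described by size alone, and depth is unknown. Less RNA per cell and fewer cells of a type cannot be told apart in these bulk samples. The labelled tissue could not be checked against marker genes, as no source used here pairs these IDs with products.

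Plants short of water close their stomata and accumulate abscisic acid, a hormone that switches on many genes in vegetative tissue. Among the transcripts known to become very abundant under such conditions in grasses are those for late embryogenesis abundant proteins, which protect other proteins and membranes, and for enzymes that make compatible solutes. In sweet sorghum the stem is also the main store of sucrose. The RefSeq gene table matched 0 of the 65 member IDs, so the loci are given by ID, with no name, role or sequence.

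The 66 loci went from a minor to a major part of the measured transcripts. Together they held 0.739% of all booting FPKM, against 27.4%, 24.1% and 23.2% in Ds1, Ds2 and Ds3. Their median level was 12.5 FPKM in booting and 983, 602 and 588 FPKM in the Ds groups. The rule itself fixes that every member was higher than booting in every Ds group, so this direction is not a finding. Its limits also favour a large rise in share. The columns differ in their totals too, with 477138 FPKM in booting and 885374, 682190 and 647608 in Ds1, Ds2 and Ds3. Over all gene loci at 10 FPKM or more, 8.97% were called higher in Ds1, 8.33% in Ds2 and 7.31% in Ds3, where a call needs a ratio of at least 4 on FPKM + 1 and at least 10 FPKM in the higher group. A ratio of at least 4 in every Ds group was met by 5.32% of 10951 gene loci at 10 FPKM or more in any of the 4 groups.

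Ranks within a column do not depend on its scaling. None of the 66 was among the 100 most abundant gene loci of booting, where the highest ranked 126. In Ds1 46 of the 66 were among the top 100, in Ds2 49 and in Ds3 43. The floor of the rule largely sets these high ranks, since 158 gene loci in all reached 500 FPKM in some Ds group. The smallest of a member's 3 ratios, called its least ratio below, ranged from 4.43 to 324 with a median of 42.0. There were 34 members at 1000 FPKM or more in some Ds group, 4 of them above 10000 FPKM, and 31 were at 500 FPKM or more in all 3.

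**Figure D1:**
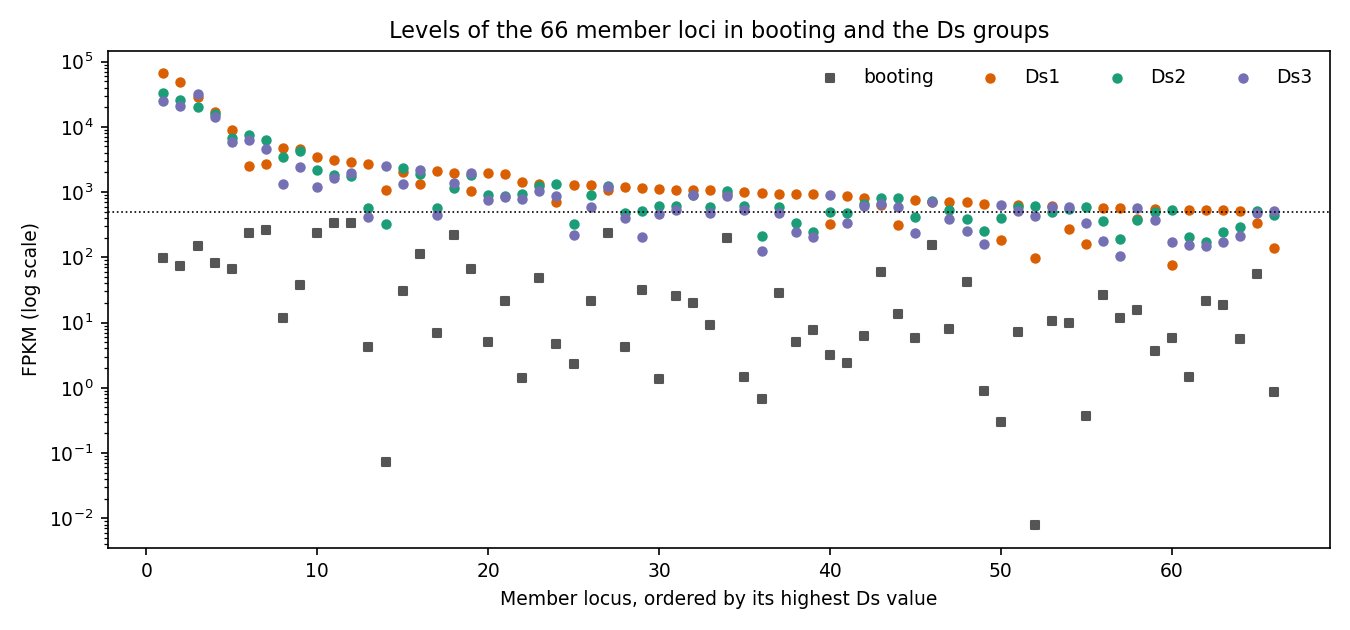
FPKM of each of the 66 member loci (log axis) in booting (squares) and in Ds1, Ds2 and Ds3 (circles), ordered from left to right by the highest Ds value; each point is the authors' single value for a group, and the dotted line marks 500 FPKM. The Ds points lie above the square of the same locus in every case, as the rule requires, with the highest levels on the left, up to 65970 FPKM.

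A handful of loci made up most of this mass. The 5 most abundant members held 70.0% of all member FPKM in Ds1, 61.7% in Ds2 and 65.1% in Ds3, but 13.2% in booting. They were ranked by their highest Ds value, which favours a larger share in the Ds groups, so the contrast with booting is not a separate result. Sobic.004G337132 read 97.0 FPKM in booting and 65970, 32599 and 24542 in Ds1, Ds2 and Ds3. Sobic.001G038050 read 74.5 FPKM in booting and 49021, 26035.5 and 20677 in Ds1, Ds2 and Ds3. These were the 2 highest gene loci of Ds1 and Ds2, and both were highest in Ds1 and lowest, among the Ds groups, in Ds3.

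Sobic.010G039150 read 147 FPKM in booting and 29013, 20313 and 32381 in Ds1, Ds2 and Ds3. It was the most abundant gene locus of Ds3, and its 3 Ds values lay within 2-fold of each other. Sobic.001G202800 read 81.0 FPKM in booting and 16765, 15586 and 14373 in the Ds groups, a nearly level profile. Sobic.004G198701 read 66.9 FPKM in booting and 8824, 6761 and 5892 in the Ds groups. All 5 were thus moderately expressed in booting, at ranks between 447 and 1244 among gene loci. Without the 2 most abundant members the share of all FPKM would be 14.4% in Ds1, 15.5% in Ds2 and 16.2% in Ds3.

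**Figure D2:**
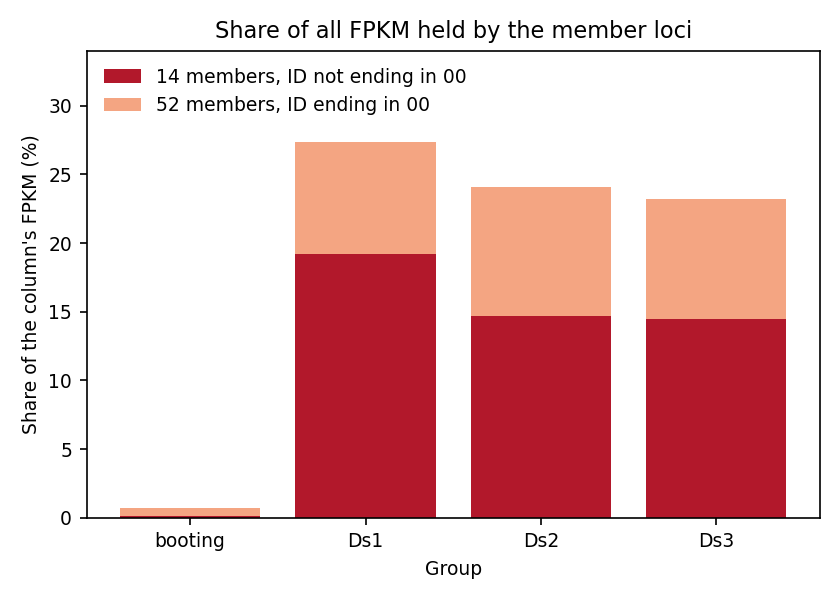
Share of each column's FPKM held by the member loci in booting, Ds1, Ds2 and Ds3 (percent, bars from 0), split into the 14 members whose ID number does not end in a pair of zeros (dark) and the other 52 (light). The full bars stand at 0.739%, 27.4%, 24.1% and 23.2%, and the dark part is the larger one in each Ds group.

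IDs of an uncommon kind were frequent among the most abundant members. Most sorghum gene numbers in the table end in a pair of zeros, and 14 of the 66 members (21.2%) have a number that does not, against 5.72% of the 10951 gene loci at 10 FPKM or more and 15.1% of all gene loci. Among 508 loci with every ratio at least 4 but a highest Ds value from 10 to under 500 FPKM, the share was 15.2%, so such IDs were also more frequent there than among expressed loci. Among the 10 most abundant members 6 were of this kind, and the 14 together held 70.1% of member FPKM in Ds1, 61.0% in Ds2 and 62.3% in Ds3. These shares largely repeat Sobic.004G337132, Sobic.001G038050 and Sobic.010G039150, described above. Singly these loci held 7.45%, 5.54% and 3.28% of all Ds1 FPKM, against 19.2% for the 14 together. The median highest Ds value of the 14 was 2081 FPKM, against 958 for the other 52. The sources used here do not say what sets these numbers apart. No transcript lengths are given, and FPKM divides by length, so how far a short transcript raises these values was not tested.

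Beyond those above, the ID Sobic.004G087050 names a pair of loci of this kind. The first read 37.3 FPKM in booting and 4521, 4311 and 2432 in Ds1, Ds2 and Ds3. The second read 11.6 FPKM in booting and 4689, 3499 and 1329 in the Ds groups. Both were lowest in Ds3 among the Ds groups, and they share an ID, so they are not independent examples.

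A further 4 members carry IDs that begin Sobic.K, which name no numbered chromosome; they are named here because of their IDs, after their values had been seen. They are 6.06% of members, against 0.21% of gene loci at 10 FPKM or more. Among the 508 loci that met the ratios with a lower highest Ds value, the share was 1.18%, also above that of expressed loci. Sobic.K031400 read 25.4 FPKM in booting and 1086, 610 and 535 in Ds1, Ds2 and Ds3, and Sobic.K032200 19.9 and 1076, 907 and 887. Sobic.K032300 read 15.8 FPKM in booting and 391, 375 and 565 in the Ds groups, and Sobic.K032350 28.1 and 935, 589 and 480. Their booting values lay within 2-fold of each other, and Sobic.K032300 alone of the 4 was highest in Ds3. The numbers of Sobic.K032200, Sobic.K032300 and Sobic.K032350 lie close together, so these need not be independent examples. By the number in the ID the other members were spread over all 10 chromosomes. There were 15 (22.7% of all members) on chromosome 1, 12 (18.2%) on chromosome 4 and 1 (1.52%) on chromosome 8. Of gene loci at 10 FPKM or more, 19.1%, 12.1% and 4.76% were on these chromosomes.

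**Figure D3:**
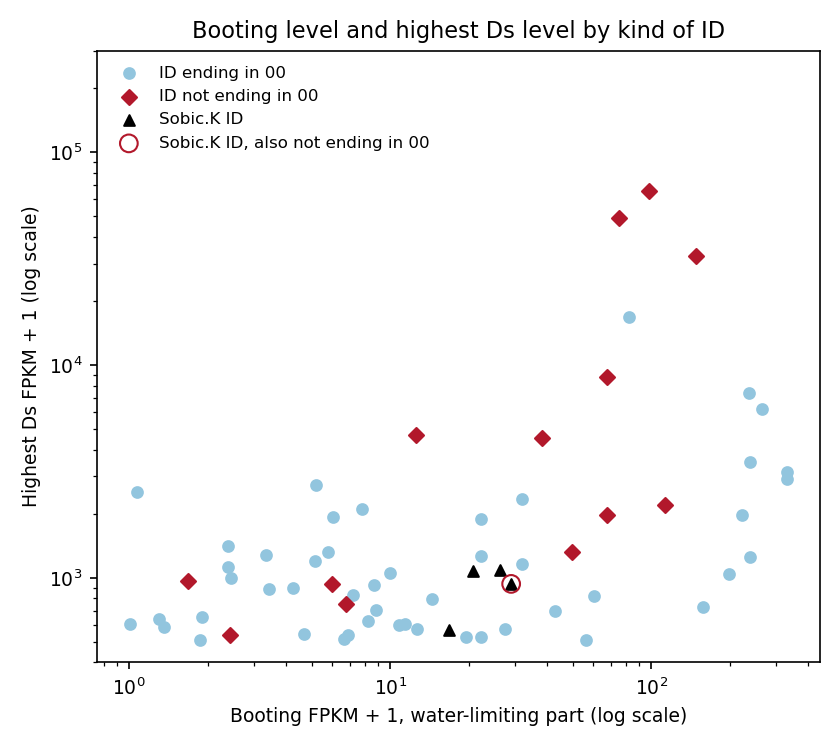
Booting level against highest Ds level of the 66 members (FPKM + 1, both axes log), with IDs ending in a pair of zeros as circles, other numbers as diamonds and Sobic.K IDs as triangles; 1 triangle is ringed because its number also does not end so. The 3 highest points are all diamonds, and the members run from under 1 to 330.4 FPKM in booting.

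Some members were already abundant in booting. The 11 members at 100 FPKM or more in booting had a median least ratio of 5.12, and the 7 under 1 FPKM had a median of 99.1. The rule builds this in, since booting is the denominator and a low start needs a large ratio to reach 500 FPKM. The first class also reached 137, at Sobic.010G039150. Sobic.004G036200 read 330.4 FPKM in booting and 2909.5, 1789 and 1975 in Ds1, Ds2 and Ds3. Sobic.003G005800 read 330.3 FPKM in booting and 3137, 1809 and 1643 in the Ds groups. Both ratios stayed under 10-fold in each Ds group, from the highest booting levels of any members.

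Sobic.001G191200 read 238 FPKM in booting and 3498, 2139.8 and 1209 in the Ds groups, and Sobic.001G028800 222 and 1980.5, 1143 and 1356. Sobic.003G397400 read 236 FPKM in booting and 2521, 7419 and 6363 in the Ds groups. Sobic.002G075800 read 264 FPKM in booting and 2707, 6179.8 and 4582. The last pair were lowest in Ds1 among the Ds groups, by over 1.5 times. The smallest least ratios of all belonged to 3 members that were nearly level across the Ds groups. Sobic.006G242000 read 157 FPKM in booting and 698, 725 and 706, Sobic.006G124900 read 197 and 931, 1042 and 882, and Sobic.004G142800 read 238 and 1091, 1249 and 1195.

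At the other end, some members were close to 0 in booting. Sobic.001G492000 read 0.00781 FPKM in booting and 98.9, 608 and 434 in Ds1, Ds2 and Ds3. Sobic.009G119200 read 0.0730 FPKM in booting and 1059.8, 323 and 2530.1 in the Ds groups. Its lowest Ds value was in Ds2, and it was the 1 member called between Ds3 and Ds2. The largest least ratio, 324, was at Sobic.001G479000, with 1.40 FPKM in booting and 1416, 928 and 777 in the Ds groups. Sobic.006G215200 followed the 2 most abundant members and Sobic.009G119200 in that order, with a least ratio of 216 and values of 1.46, 996, 618 and 531 FPKM. A second locus of its ID read 0.0581, 0.125, 0.0738 and 0.0236 FPKM in the same 4 groups.

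Among the Ds groups, most members stood highest in Ds1 and lowest in Ds3 in the deposited FPKM. The order Ds1, Ds2, Ds3 from high to low was seen in 41 of 66 members (62.1%), against 27.7% of gene loci at 10 FPKM or more. Ds1 was the highest Ds group for 44 members (66.7%), Ds2 for 13 (19.7%) and Ds3 for 9 (13.6%), against 44.1%, 19.5% and 36.4% of those gene loci. Of the 83 gene loci that reached 500 FPKM in a Ds group with a ratio under 4, 75.9% were highest in Ds1. The median log2 difference, on FPKM + 1, was -0.56 for Ds2 minus Ds1, -0.31 for Ds3 minus Ds2 and -0.88 for Ds3 minus Ds1. Over all gene loci at 10 FPKM or more in either group these medians were -0.08, 0.03 and -0.04. The rule set each Ds value against booting and did not compare the Ds groups with each other directly. Its floor of 500 FPKM took the highest Ds value, however, so a locus could pass through its peak group alone. Only 31 of the 66 members were at 500 FPKM or more in every Ds group. The floor can thus favour a Ds group in which abundant loci read higher. How far the floor shaped the order among the Ds groups was not tested.

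The lower level in Ds3 than in Ds1 was not common to all loci that met the same ratios. In the 508 loci with a lower highest value the median Ds3 minus Ds1 difference was -0.03, and 51.6% were below their Ds1 value, against 69.7% of members. In the 83 abundant loci with a ratio under 4, it was -0.87, close to that of the members. The total of the Ds1 column was 885374 FPKM, against 682190 in Ds2 and 647608 in Ds3, and the part that a higher Ds1 total plays in these differences was not tested. Under quantile normalization, which gives the columns the same distribution, the members' median was 0 for Ds2 minus Ds1 and -0.33 for Ds3 minus Ds1. The size of the differences between Ds1 and the other groups thus changed with the scaling, and the median for Ds2 minus Ds1 no longer lay below 0. The order of the Ds groups in each member was not recomputed under quantile normalization.

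**Figure D4:**
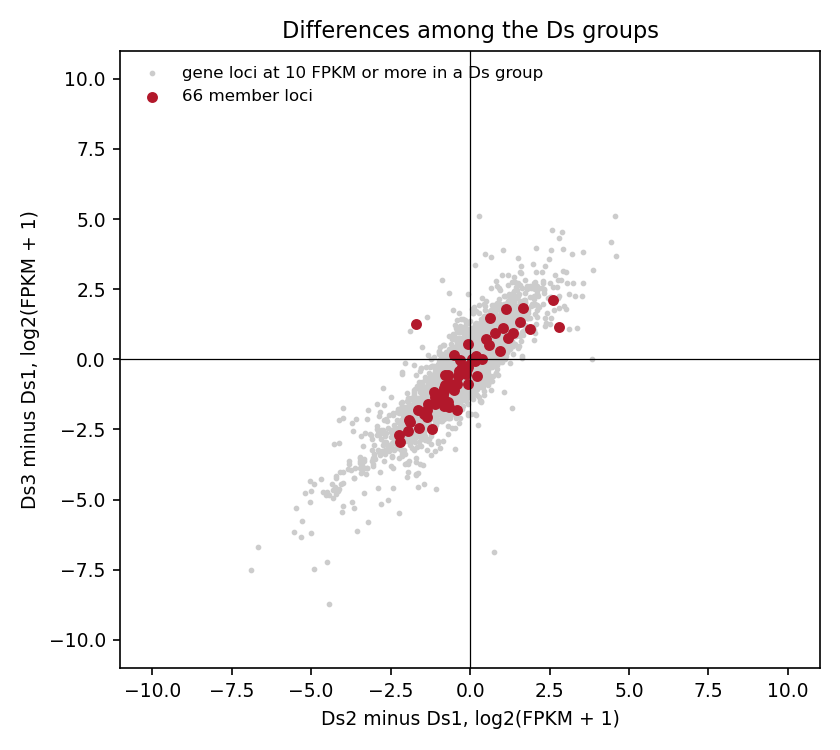
Ds2 minus Ds1 (horizontal) against Ds3 minus Ds1 (vertical), both as differences in log2(FPKM + 1), for the 66 members (red) and for all gene loci at 10 FPKM or more in a Ds group (grey). Most members, 46 of 66, lie below the horizontal zero line; both axes share Ds1, so the slope of the cloud is not a result.

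Only a small number of members differed by 4-fold among the Ds groups. Between Ds2 and Ds1, 2 members were called higher and 2 lower in Ds2, against 0.831% and 2.42% of gene loci; under quantile normalization the split was 3 higher and 0 lower. Between Ds3 and Ds1, 1 was called higher and 8 lower in Ds3 (12.1% of members), against 1.25% and 3.93% of gene loci. Of the 83 abundant loci with a ratio under 4, 3.61% were called higher and 13.3% lower in Ds3, so the members' share was not particular to them. A member could meet the floor of 500 FPKM in Ds1 alone, and how far this shaped the calls was not tested. Under quantile normalization the split between Ds3 and Ds1 was 3 higher and 2 lower. Between Ds3 and Ds2, 1 member was called higher and 0 lower, against 0.179% and 0.336%. There were 27 members whose 3 Ds values all lay within 2-fold on FPKM + 1, a count whose share over all gene loci was not computed.

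Of the 8 members called lower in Ds3 than Ds1, 2 were also called lower in Ds2 than Ds1. Sobic.010G230100 read 4.18 FPKM in booting and 2730.3, 577 and 417 in Ds1, Ds2 and Ds3. Sobic.001G156700 read 6.80 FPKM in booting and 2098, 571 and 442, and Sobic.003G034200 2.35 and 1273, 329 and 217. Sobic.006G053050 read 0.680 FPKM in booting and 969.7, 209.8 and 124, and had the largest Ds3 minus Ds1 difference, -2.96 in log2. In these loci more of the difference lay between Ds1 and Ds2 than between Ds2 and Ds3.

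The same held for the next 3. Sobic.004G061100 read 7.69 FPKM in booting and 920.2, 242 and 204 in the Ds groups. Sobic.009G248200 read 0.908 FPKM in booting and 656, 255 and 157. Sobic.003G290300 read 11.7 FPKM in booting and 571, 189 and 105. Sobic.003G107400, the eighth, was the exception, with 31.1 FPKM in booting and 1157, 507 and 207 in the Ds groups. Its 2 steps were of about the same size, -1.19 and -1.29 in log2.

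A smaller set had its lowest Ds value in Ds1. It held 17 members (25.8%), against 37.1% of gene loci at 10 FPKM or more, with a median of 338 FPKM in Ds1, 725 in Ds2 and 646 in Ds3. Sobic.001G492000, described above, was called higher in both Ds2 and Ds3 than in Ds1, and Sobic.003G158600 in Ds2 only. The latter read 5.89 FPKM in booting and 77.3, 538 and 173 in Ds1, Ds2 and Ds3, a peak in Ds2. It had the lowest Ds1 value of any member.

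Of these 17 members 6 stood in the order Ds3, Ds2, Ds1 from high to low, which is 9.09% of all members, against 25.5% of gene loci at 10 FPKM or more. Sobic.004G303466 read 112 FPKM in booting and 1322, 1866 and 2193 in Ds1, Ds2 and Ds3, and Sobic.004G120150 67.0 and 1038, 1802 and 1969. Sobic.002G055700 read 3.23 FPKM in booting and 322, 495 and 894 in the Ds groups. Sobic.007G109800 read 0.300 FPKM in booting and 183, 399 and 639. The first pair differed by under 2-fold between Ds1 and Ds3, and the second pair by more than 2-fold. Sobic.001G372500 read 274, 558 and 597 FPKM and Sobic.001G353400 read 141, 452 and 507 in Ds1, Ds2 and Ds3, each with most of its difference between Ds1 and Ds2.

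Other members among the 25 most abundant filled the range between these patterns. Sobic.002G288700 read 30.9 FPKM in booting and 2007, 2347 and 1325 in Ds1, Ds2 and Ds3. Sobic.009G183101 read 48.9 FPKM in booting and 1327, 1228 and 1052, and Sobic.009G036100 4.77 and 693, 1320.5 and 859. Sobic.001G452800 read 5.02 FPKM in booting and 1927, 906 and 754, and Sobic.004G298800 21.3 and 1898, 868 and 851. The last 2 were over 2-fold higher in Ds1 than in Ds2, and under 1.5 times apart between Ds2 and Ds3.

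The developmental part of the table, which the rule did not use, shows what the same genes did at later stages without a Ds code. It was scaled by the authors on its own, so levels are set beside the Ds values only roughly, and its booting column comes from the same booting libraries. All 66 members were found there by ID, in 65 loci, because both loci of Sobic.004G087050 answer to 1. The members' share of all FPKM was 0.766% in booting, 0.701% in milky and 0.527% in maturity. Their median level was 18.2, 12.6 and 9.93 FPKM, and 2 of 65 reached 500 FPKM at any stage. For 64 of 65 loci, and for all 56 members that had a separate locus in each part, the highest of the 3 stages was below the lowest Ds value. The exception was Sobic.003G107400, whose developmental locus also takes in other genes and cannot be separated from them. The rule favours stages below the Ds values, since it puts every Ds value at least 4-fold above booting. Among all gene loci at 10 FPKM or more, 0.781% were called higher in milky than booting and 0.0401% in maturity. The count of 64 is thus not a separate result. For members that share an ID, the developmental locus need not be the member locus: Sobic.006G215200 read 0.0672 FPKM in developmental booting, near the 0.0581 of its other locus.

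At maturity the members tended to lie below booting. Of 65 loci 49, and 43 of the 56 with a separate locus, were below their booting value in maturity, with a median log2 difference of -0.64 (-0.35 with a pseudocount of 5), while over all gene loci at 10 FPKM or more 57.9% were above and the median was 0.06. In milky 43 of 65 were below, with a median of -0.24 (-0.41 with a pseudocount of 0.1) against 0.03 for all gene loci. The member counts and medians here had no floor in FPKM, unlike those of all gene loci. On FPKM + 1, 37 of 65 loci were within 2-fold of booting at both later stages. The share over all gene loci was not computed. Adding 1 shrinks differences at low FPKM, and 40 of 65 loci reached 10 FPKM at any stage. Of 40 member loci at 10 FPKM or more in booting or milky, 1 was called higher and 1 lower in milky, against 0.781% and 1.18% of gene loci. Of 38 at that level in booting or maturity, 0 were called higher and 2 lower in maturity, against 0.0401% and 0.912%. Between maturity and milky 0 were called higher and 3 lower, against 0.746% and 1.4%.

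The members called between developmental stages showed several patterns. Sobic.009G036100 read 5.51 FPKM in booting, 30.2 in milky and 5.85 in maturity. Sobic.002G288700 read 35.8 FPKM in booting, 6.45 in milky and 13.5 in maturity. Sobic.004G036200 read 382 FPKM in booting, 198 in milky and 68.9 in maturity. These were a milky peak, a milky dip and a stepwise lower level in turn, 1 of each. The locus of Sobic.004G087050 read 13.4 and 18.3 FPKM in booting and milky and is listed at 0 in maturity. Sobic.002G207300, called lower in maturity than milky, read 64.3, 139 and 20.6 FPKM.

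The highest developmental levels were in members already abundant in booting. Sobic.002G075800 read 305 FPKM in booting, 613.5 in milky and 452 in maturity, and Sobic.003G397400 273, 234 and 503. The 5 loci that dominate the Ds columns stayed between 30.5 and 170.4 FPKM throughout. Sobic.004G337132 read 112, 152 and 67.0 FPKM and Sobic.001G038050 106, 154 and 77.5 in booting, milky and maturity, both highest in milky. Sobic.010G039150 read 170.4, 70.2 and 80.4 FPKM, Sobic.001G202800 93.7, 66.2 and 34.4, and Sobic.004G198701 77.9, 31.6 and 30.5, all highest in booting. All 4 Sobic.K members were also highest in booting, and their summed level was 98.3, 40.2 and 41.1 FPKM.

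**Figure D5:**
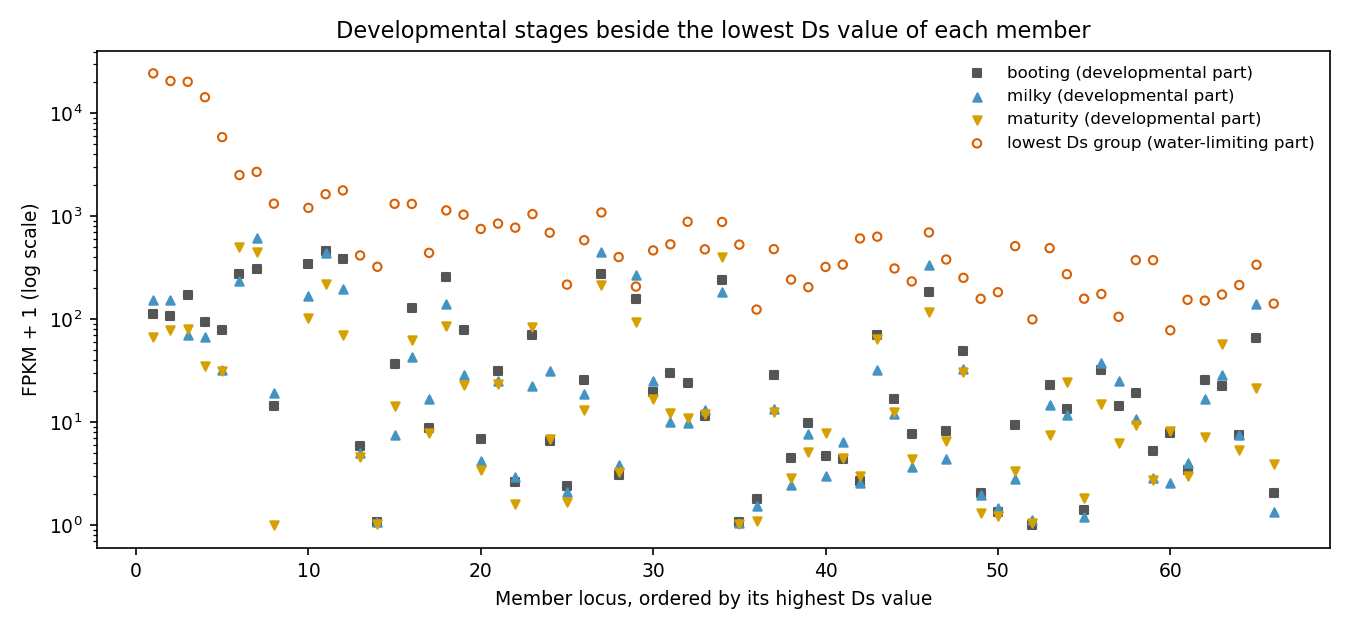
FPKM + 1 (log axis) of the members at booting (squares), milky (upward triangles) and maturity (downward triangles) in the developmental part, beside the lowest of the 3 Ds values from the water-limiting part (open circles), ordered by highest Ds value. The parts were scaled separately. The open circle lies above all 3 stages in 64 of 65 loci, which the rule favours by setting each Ds value well above booting.

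The same booting libraries were quantified in both parts, which checks the low booting values that the rule rests on. For the 56 members with a separate locus, the ratio of the water-limiting to the developmental booting value ran from 0.601 to 1.98 with a median of 0.864. Of these, 42 (75%) lay within 5% of 0.864, the median over all such genes, against 77.4% of 8622 other genes at 10 FPKM or more. None was 2-fold apart on FPKM + 1, against 2.03% of those other genes. The members had no such floor, and adding 1 shrinks ratios at low FPKM. Members without a separate locus were left out, and their ratios ran from 0.0739 at Sobic.003G322200 to 21.8 at Sobic.006G215200. The check compares the authors' quantification of the same reads and not plants.

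The remaining 10 members are less certain, since 9 share their ID with another locus of the water-limiting part and Sobic.003G107400 shares its developmental locus. Of the 7 further loci that share these IDs and are not members, 5 had a least ratio under 4, among them those of Sobic.004G198701, Sobic.003G397400 and Sobic.006G215200, so the values above hold for the member locus and not for the ID. Sobic.003G322200 read 1.38 FPKM in booting and 1120.4, 608 and 466 in Ds1, Ds2 and Ds3 at the member locus. A second locus of that ID read 16.2, 17.4, 13.3 and 13.6 FPKM in the same 4 groups, and the developmental part has 18.7 FPKM in booting for its single locus. The second locus thus stayed within 1.5 times of booting. Sobic.002G044500 read 10.4 FPKM in booting and 606, 491 and 589 at the member locus, and 8.76 and 275, 287 and 308 at its second, so both loci of that ID were above booting in all 3 Ds groups. Reads of near-identical copies could not be told apart here, as no sequences were used.

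The 19 members not described singly lay in the same ranges. They read 0.365 to 59.7 FPKM in booting, 158 to 1267 in Ds1, 169 to 893 in Ds2 and 151 to 646 in Ds3, with medians of 7.20, 635, 484 and 340. Their least ratios ran from 5.91 to 116, with a median of 40.6. Of these 16 stood in the order Ds1, Ds2, Ds3 from high to low, and 3 were lowest in Ds1.

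The limits of the rule fall inside a continuous range. Just inside the 500 FPKM floor were Sobic.001G353400 at 507 FPKM and Sobic.002G207300, which read 55.5 FPKM in booting and 338, 511 and 485 in the Ds groups, and just outside were Sobic.009G215700 at 498.4 and Sobic.004G208201 at 498.0. Just outside the ratio of 4 were Sobic.001G040200 with a least ratio of 3.97 and Sobic.004G286600 with 3.90. Sobic.001G141300, with a least ratio of 3.80, read 1703 FPKM in booting and 30465, 14686.5 and 6479 in Ds1, Ds2 and Ds3, more than all but 2 members in Ds1.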

How the data were processed

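Stem internode RNA of 12 libraries in 6 groups was analysed from 1 deposited table. Per the labels' protocols, RNA was isolated with Trizol in a modified procedure, and TruSeq Stranded Total RNA kits served for the libraries. The authors deposited FPKM values, with 1 value per group in each of the 2 parts of the table; the unit comes from the table's name. The second booting column, listed as an other unit in the bookkeeping, is likewise the authors' deposited FPKM. The submitters' processing notes name Cuffdiff, Bowtie2 2.2.9, HISAT2 2.0.5 and cutadapt 1.8.1 without their roles. For the genome build, no source used here gives a name. Ratios were taken within a part, on FPKM + 1, with pandas 2.3.3 and numpy 2.4.6. With 1 value per group no test was possible; a limma fit had been foreseen for values per library. Members were matched between parts by gene ID. Named loci are the 25 most abundant members, the 5 largest and 5 smallest least ratios, those called among Ds groups or stages, and those at the rule's limits; the others were chosen after their values were seen. Members and lists were chosen with earlier results of these data known. Groups of genes by product name could not be formed, since 0 IDs matched the RefSeq gene table. Scripts were tested on simulated data. Alternatives were other pseudocounts, scalings, minimums and limits.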

Additional observations from a re-analysis of the deposited data

Results flagged for a closer look

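Loci without a gene ID lie outside the comparisons above. Of these, 12 met the same ratios and level as the members, with a summed 0.0472% of all FPKM in booting and 7.69%, 5.63% and 5.06% in Ds1, Ds2 and Ds3. The highest, MSTRG.2860, read 76.0 FPKM in booting and 27801 in Ds1. A run of 3 with consecutive assembly numbers, MSTRG.22466, MSTRG.22467 and MSTRG.22468, read 6968, 4187 and 4628 FPKM in Ds1. Their numbers fall between those of the members Sobic.K031400 (MSTRG.22461) and Sobic.K032200 (MSTRG.22476).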

How the results depend on the processing

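Of 46 recomputed counts and shares, 40 lay within 1.5 times the reported value. Shares after scaling by the median of ratios could not change, since a whole column is divided by 1 factor. Calls were compared by their total, so a changed split of higher and lower was not counted as a change. The number of members was 67 and 66 with pseudocounts of 0.1 and 5, 69 after scaling by the median of ratios, 54 after quantile normalization, 54 and 74 with a least ratio of 8 and 3, 98 and 34 with a floor of 300 and 1000 FPKM, and 57 with only IDs of 1 locus. Without the 2 most abundant members, an alternative chosen after seeing the data, the share of all FPKM was 14.4% in Ds1 and 15.5% in Ds2. With a pseudocount of 5, members called in milky were 0 and in maturity 1, in place of 2 and 2. With quantile normalization 5 members were called between Ds3 and Ds1 in place of 9; the cause was not tested. The median of ratios shifted all loci by at most 0.09 in log2. No paired analysis was possible because the columns hold 1 value per group, and leaving out a replicate was not possible for the same reason. Depth is unknown, so what it limits could not be given.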

Other observations

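The 2 most abundant members, compared after their values were seen, are set side by side here. Sobic.004G337132 stood at 1.30 times Sobic.001G038050 in booting and at 1.35, 1.25 and 1.19 times it in Ds1, Ds2 and Ds3, while their least ratios to booting were 250 and 274. In the developmental part the ratio was 1.06 in booting, 0.984 in milky and 0.865 in maturity, so the ratio for the same booting libraries differed more between the parts than it did across the water-limiting groups.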
